A study of Mus musculus with 12 samples.

Results

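Islet blood vessels and the signal that sustains them were followed through 10 genes: 9 genes that mark vascular endothelium (Pecam1, Cdh5, Kdr, Flt1, Tek, Plvap, Esam, Cldn5 and Emcn) and the ligand gene Vegfa. They were taken by symbol from the 54532 Ensembl genes listed for each of 12 RNA sequencing libraries of mouse pancreatic islets, and all 10 passed the filter on low counts. All libraries came from male C57BL/6 mice labelled as 40 weeks old, either wild type (WT) or with a knockout of the mitochondrial deacetylase gene Sirt3 selective for beta cells (KO). The labels do not name the Cre line. The food was either standard (STD, 6.2% fat) or, for 36 weeks, high in fat (HFD, 60% of calories), giving 4 groups of 3 libraries: STD WT, STD KO, HFD WT and HFD KO. Before the high fat diet, WT mice had 4 weeks of standard food, HFD KO 1 and HFD KO 3 had 6 weeks and HFD KO 2 had 5, so genotype and this period cannot be told apart within the high fat groups. With the 36 weeks that followed, the KO periods add up to more than the labelled age. Islets were freed with collagenase and collected from a density gradient, which keeps their capillaries together with some vessels and other cells of the surrounding pancreas. Whether each library of a group is another animal is not in the labels, so the p-values reflect only the spread among these libraries, which may be technical.

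Islets are among the most densely vascularised tissues, with capillaries whose endothelium is thin and perforated by fenestrae. Endocrine cells, above all beta cells, secrete VEGF-A, which acts on the receptors Kdr (VEGFR2, the main signalling receptor) and Flt1 (VEGFR1, which binds the ligand strongly and also limits its action) on the neighbouring endothelium. Mice whose islets lack Vegfa have sparse capillaries with few fenestrae. Vegfa is also a classical target of hypoxia-inducible factors (HIF).

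The upstream promoter sequences of 4 members are shown because their genes gave the patterns described here: Kdr and Flt1 were the most alike of all members across libraries, Cldn5 departed from the other endothelial genes, and Vegfa is the ligand. RefSeq promoter windows (GRCm38.p6) were found for 6 of the 10 members, and only the bases upstream of the gene, up to 250, are printed. Capitals mark GGAA, or its reverse complement TTCC, the core letters recognised by ETS factors, which include the endothelial regulators Erg and Fli1. The windows lie at chr5:75978459-75978705 (minus strand) for Kdr, chr5:147726012-147726261 (minus strand) for Flt1, chr16:18776597-18776846 (plus strand) for Cldn5 and chr17:46032378-46032627 (minus strand) for Vegfa.
Kdr: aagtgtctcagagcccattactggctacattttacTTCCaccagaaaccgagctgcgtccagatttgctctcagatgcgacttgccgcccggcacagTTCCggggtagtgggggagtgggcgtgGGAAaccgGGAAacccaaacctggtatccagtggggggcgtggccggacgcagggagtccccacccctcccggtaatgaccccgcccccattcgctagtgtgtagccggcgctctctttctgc
Flt1: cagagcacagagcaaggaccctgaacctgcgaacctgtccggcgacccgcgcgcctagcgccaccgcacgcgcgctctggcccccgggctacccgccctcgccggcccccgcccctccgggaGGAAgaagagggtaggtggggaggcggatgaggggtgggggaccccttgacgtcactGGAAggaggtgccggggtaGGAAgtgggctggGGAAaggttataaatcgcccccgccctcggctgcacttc
Cldn5: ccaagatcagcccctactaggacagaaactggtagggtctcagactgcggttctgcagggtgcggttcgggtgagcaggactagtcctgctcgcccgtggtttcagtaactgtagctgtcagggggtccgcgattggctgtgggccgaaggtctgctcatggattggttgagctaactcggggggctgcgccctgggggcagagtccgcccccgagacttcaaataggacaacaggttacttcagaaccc
Vegfa: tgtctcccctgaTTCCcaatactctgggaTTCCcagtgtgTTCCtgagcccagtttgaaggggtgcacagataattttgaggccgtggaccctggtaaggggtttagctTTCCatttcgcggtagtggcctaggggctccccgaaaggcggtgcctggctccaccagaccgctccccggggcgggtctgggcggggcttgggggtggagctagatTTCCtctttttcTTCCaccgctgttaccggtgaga

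Counted on both strands, GGAA occurred 4 times in the Kdr window, 4 times in that of Flt1, 6 times in that of Vegfa and 0 times in that of Cldn5. The windows of Emcn and Tek held it 4 and 2 times. These letters are common: 93.4% of 32536 promoter windows of 250 bases held at least 1, and 54.7% held 3 or more. ACGTG, a form of the core letters of a HIF site, occurred 0 times in all 6 windows and was present in 16.7% of all windows. The other form, GCGTG, was not counted, so these counts do not cover all HIF cores. A match is a description of the letters, and a window without one says only that the letters are not in it.

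The libraries held 16037709 to 20864920 counts each, and 16076 genes passed the filter and were tested. Levels are given as CPM, read counts scaled to a common library total, with TMM library sizes, or as the deposited FPKM where genes are compared with each other. Sirt3 stood at 9.04 to 11.8 CPM in the 6 WT libraries and at 5.86 to 6.59 CPM in the 3 STD KO libraries. It stood at 7.85 CPM in HFD KO 1 and 6.21 CPM in HFD KO 3, but at 11.5 CPM in the library labelled HFD KO 2, inside the WT range. STD WT 3 also stood apart, with 43.5 CPM of the serotonin synthesis gene Tph1 against 0.70 to 1.33 CPM in the other WT libraries and 382 to 1149 CPM in all 6 KO libraries, the library labelled HFD KO 2 included. Calls that end without these 2 libraries are given with their values.

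Vegfa was the most abundant of the 10 transcripts, and Plvap led the endothelial genes. Averaged over the 12 libraries, deposited FPKM were 194 for Vegfa and 84.4 for Plvap, the protein that forms the diaphragms of fenestrae. Flt1 (27.7), Esam (25.4), Pecam1 (25.1) and Kdr (20.6) followed, then Emcn (14.2), Cdh5 (12.9), Cldn5 (3.85) and Tek (3.09). Vegfa was above Plvap, Plvap above Flt1, and Cdh5 above Cldn5 in 12 of 12 libraries. Flt1 was above Esam in 7 libraries, Esam above Pecam1 in 7, Pecam1 above Kdr in 9, Emcn above Cdh5 in 9 and Cldn5 above Tek in 9, so the order of these neighbours varied between libraries. Kdr was above Emcn in 11. The order also depends on the length used, because the deposited lengths equalled the mean length of the gene's GENCODE transcripts within 1 bp for all 10 members. Vegfa was divided by 1230 bp, although its longest transcript has 3451 bp. With the longest transcript of each gene, Plvap stood at 84.4 and above Vegfa at 69.3 on the same FPKM scale.

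The endothelial genes varied together from library to library, within groups as well as between them. Their summed level was 335, 550 and 704 CPM in STD WT 1, 2 and 3, and 470, 510 and 523 CPM in the STD KO libraries. It was 553, 317 and 584 CPM in HFD WT and 540, 324 and 529 CPM in HFD KO, with the library labelled HFD KO 2 the low value. Thus 1 library in each of the STD WT, HFD WT and HFD KO groups lay far below its group, and the 3 STD KO libraries lay close together. The mean log2 CPM of the 9 genes was 5.18 ± 0.48 in STD WT, 5.13 ± 0.12 in STD KO, 4.72 ± 0.39 in HFD WT and 5.02 ± 0.36 in HFD KO (SD, n = 3 each), and all 4 group ranges overlapped. In bulk islet RNA, fewer endothelial cells and less RNA per cell cannot be told apart.

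**Figure D1:**
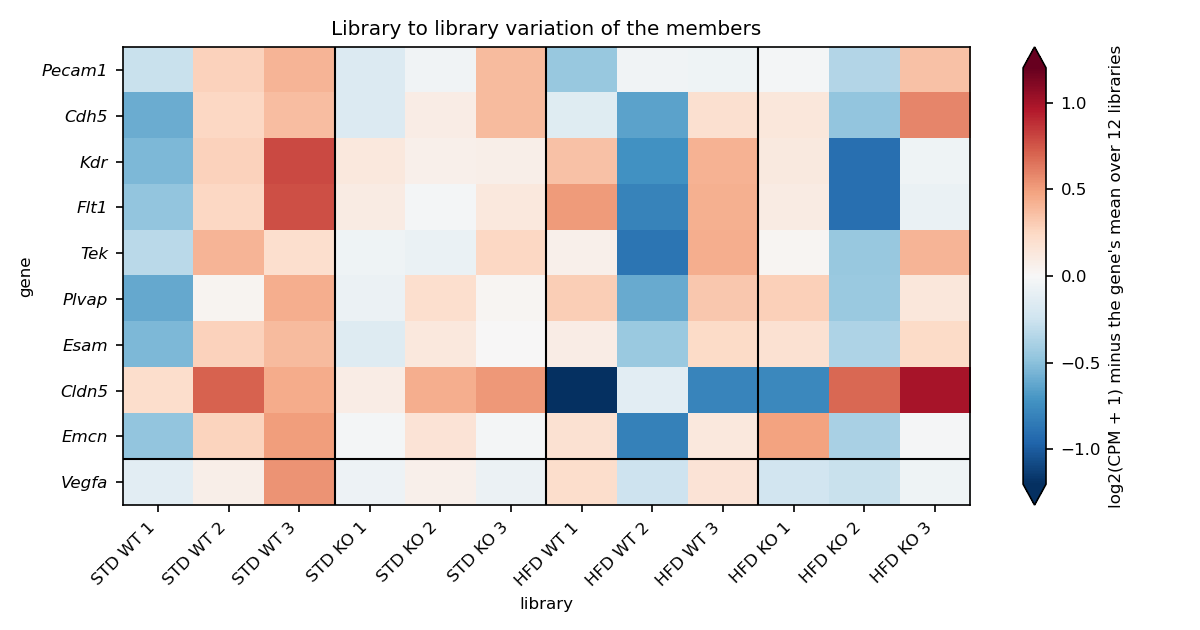
Colour gives log2(CPM + 1) of each member minus that gene's mean over the 12 libraries, with genes in rows, libraries in columns and vertical lines between groups. Most endothelial rows are blue together in STD WT 1, HFD WT 2 and the library labelled HFD KO 2, and Cldn5 follows another pattern; its value in HFD WT 1 lies beyond the end of the scale.

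Of the adhesion and junction genes of endothelium, Cdh5 and Esam were lowest in the libraries of low summed level, whereas Pecam1 and Cldn5 followed other orders. Pecam1 (CD31, chr11:106654217-106750628, minus strand), the adhesion molecule most used to stain vessels, had levels of 49.9, 73.4 and 80.3 CPM in STD WT and of 53.8, 58.4 and 78.7 in STD KO. It stood at 43.7, 58.4 and 58.4 CPM in HFD WT and at 59.3, 47.0 and 77.3 in HFD KO. All 4 ranges overlapped, and HFD WT 1 was the lowest of the 12 libraries. Cdh5 (VE-cadherin, chr8:104101625-104144511, plus strand), the cadherin of endothelial adherens junctions, had 17.5, 32.0 and 35.0 CPM in STD WT, 23.9, 28.7 and 35.2 in STD KO, 24.2, 16.8 and 30.9 in HFD WT and 29.6, 19.0 and 40.8 in HFD KO. Esam (chr9:37528078-37538319, plus strand), an adhesion molecule of endothelial tight junctions, stood at 12.7 to 24.8 CPM in STD WT, 16.7 to 20.7 in STD KO, 13.5 to 22.2 in HFD WT and 14.3 to 22.3 in HFD KO. For both genes the lowest libraries were STD WT 1, HFD WT 2 and the library labelled HFD KO 2.

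Cldn5 (chr16:18776847-18778262, plus strand) encodes claudin-5, the tight junction claudin typical of continuous, sealed endothelium. Its levels were 5.37, 7.98 and 6.52 CPM in STD WT and at 4.84, 6.43 and 6.89 in STD KO. It stood at 0.054, 4.05 and 2.17 CPM in HFD WT and at 2.23, 7.87 and 9.89 in HFD KO. All 3 HFD WT libraries lay below all 3 STD WT libraries, and they overlapped HFD KO through HFD KO 1. HFD WT 1 held 1 Cldn5 read, against 36 to 204 in the other 11 libraries, although its Plvap, Kdr and Flt1 were among the higher values. It was the only library with genes at 1 count or fewer that had at least 30 counts in each of the other libraries. There were 5 of them: Cldn5, the lymphatic endothelial gene Mmrn1 and 3 immunoglobulin segments (Ighv1-18, Igkv14-126 and Igkv8-30), a search made after the Cldn5 values were seen. The summed stellate cell and fibroblast markers (8 genes) were also lowest in this library, at 28.5 CPM against 105 to 506 in the others; their part in the Cldn5 values was not tested.

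The receptors Kdr and Flt1 were the most tightly coupled members. Kdr (chr5:75932827-75978458, minus strand) had 58.8, 104 and 149 CPM in STD WT, 93.5, 89.3 and 90.2 in STD KO, 110, 51.4 and 114 in HFD WT and 92.8, 45.4 and 82.8 in HFD KO. Flt1 (chr5:147561604-147726011, minus strand) had 56.1, 93.7 and 135 CPM in STD WT, 84.4, 77.1 and 85.9 in STD KO, 112, 44.7 and 106 in HFD WT and 84.4, 41.5 and 74.2 in HFD KO. The ratio of Flt1 to Kdr in CPM stayed between 0.863 and 1.02 in all 12 libraries, while the highest library exceeded the lowest 3.29-fold for Kdr and 3.24-fold for Flt1. Tek (Tie2, chr4:94739289-94874976, plus strand), the angiopoietin receptor of endothelium, stood at 7.98 to 13.9 CPM in STD WT, 9.61 to 12.4 in STD KO, 5.13 to 14.1 in HFD WT and 7.18 to 13.9 in HFD KO.

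Plvap and Emcn belong to the specialised surface of islet capillaries. Plvap (chr8:71497765-71511752, minus strand) had 107, 167 and 222 CPM in STD WT, 156, 188 and 167 in STD KO, 201, 107 and 204 in HFD WT and 200, 120 and 180 in HFD KO. Emcn (endomucin, a sialomucin of capillary and venous endothelium, chr3:137341067-137432185, plus strand) had 20.1, 34.3 and 40.5 CPM in STD WT, 27.8, 31.8 and 27.7 in STD KO, 32.1, 15.7 and 30.9 in HFD WT and 40.0, 21.4 and 27.9 in HFD KO. Both were lowest in the same 3 libraries as Kdr and Flt1, and their 4 groups overlapped.

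Vegfa (chr17:46016993-46032369, minus strand) varied less than its receptors, 1.75-fold between the lowest and the highest library. Its levels were 216, 249 and 343 CPM in STD WT (269 ± 65.7, SD, n = 3) and at 227, 247 and 226 in STD KO (233 ± 11.9). It stood at 274, 199 and 265 CPM in HFD WT (246 ± 40.9) and at 202, 196 and 229 in HFD KO (209 ± 17.3). The STD KO libraries lay inside the STD WT range, and the HFD KO range overlapped that of HFD WT through HFD WT 2. The highest value, 343 CPM, was that of STD WT 3, which stood apart by Tph1.

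**Figure D2:**
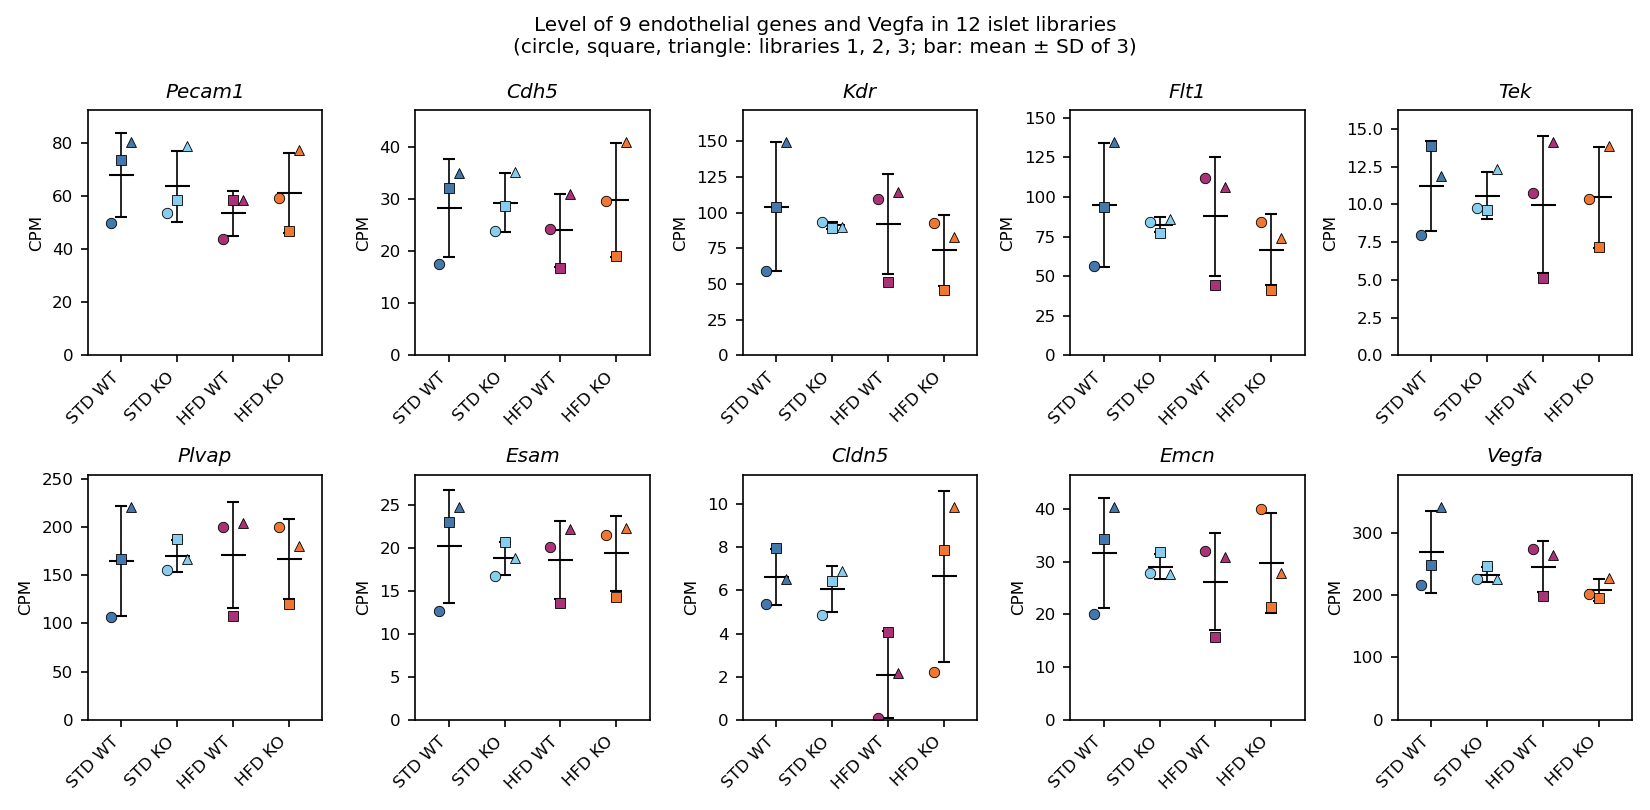
Each panel plots the CPM of 1 member (vertical axis from 0) in the 4 groups, with circles, squares and triangles for libraries 1, 2 and 3 and bars for the mean ± SD of 3. Between genotypes on 1 diet and between diets in 1 genotype, the groups overlap in every panel except for HFD WT against STD WT of Cldn5, where HFD WT 1 lies at 0.054 CPM.

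On the standard diet, the comparison of KO with WT asks whether loss of Sirt3 in beta cells goes with another level of these genes. None of the 10 members passed the threshold of edgeR's quasi-likelihood test (Benjamini-Hochberg adjusted p below 0.05 over all 16076 genes), where 1.71% of all genes passed. No member had an unadjusted p below 0.05 (0 of 10), and the Wald test of DESeq2 also called 0. Fitted changes were below 0 for 8 members and above 0 for 2, with a median log2 fold change of −0.11 against −0.02 over all genes. Without STD WT 3, 2 of the 10 were below 0, and without STD WT 1 all 10 were. Vegfa had a log2 fold change of −0.21 (SE 0.18, 95% interval −0.61 to 0.19, edgeR adjusted p = 0.98). Without STD WT 3 this was 0.0038. Kdr (−0.19, interval −1.03 to 0.64) and Flt1 (−0.20, interval −1.06 to 0.66) had the largest of the endothelial differences downward, and Cdh5 (0.06, interval −0.67 to 0.78) and Plvap (0.04, interval −0.62 to 0.70) were above 0. Without STD WT 3, the values of Kdr and Flt1 were 0.16 and 0.14, and without STD WT 1 those of Cdh5 and Plvap were both −0.21.

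On the high fat diet, the members again did not pass, in a comparison in which 7.4% of all genes did. The count was 0 of 10 by edgeR, 0 at an unadjusted p below 0.05 and 0 by DESeq2. Vegfa had a log2 fold change of −0.24 (SE 0.18, interval −0.64 to 0.16, edgeR adjusted p = 0.461), Kdr of −0.32 (SE 0.38, interval −1.16 to 0.52) and Flt1 of −0.40 (SE 0.39, interval −1.26 to 0.47). Cdh5 stood at 0.32 (interval −0.41 to 1.05), Pecam1 at 0.20, Emcn at 0.18, Tek at 0.07, Esam at 0.06 and Plvap at −0.03. Cldn5 had the largest difference, 1.68 (SE 0.86, interval −0.23 to 3.58, edgeR adjusted p = 0.262), and without HFD WT 1 it was 1.10. Without the library labelled HFD KO 2, the value for Vegfa was −0.19, for Kdr −0.07, for Flt1 −0.15 and for Cdh5 0.56, and no member passed. Without HFD KO 3, Cdh5 stood at 0.02 and Pecam1 at 0.0016. Libraries of the same number deviated together on this diet, though the labels do not pair them. Between them, Vegfa, Kdr and Flt1 were lower in KO in 3 of 3 pairs, as were 26.1% of all genes. Cdh5, Esam and Cldn5 were higher in 3 of 3, as were 23.9% of all genes. With the pairs as a block, no member passed either. Longer genes tended to lower fold changes here (Spearman rho −0.307, across genes, which are not replicates); with offsets corrected for length Kdr was at −0.05, Flt1 at −0.22 and Vegfa at −0.33.

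Averaged over both diets, the KO and WT libraries gave a log2 fold change of −0.22 for Vegfa (SE 0.13, interval −0.51 to 0.06, unadjusted p = 0.112, edgeR adjusted p = 0.361). It was −0.06 without STD WT 3 and the library labelled HFD KO 2. The 9 endothelial genes lay between −0.30 (Flt1) and 0.77 (Cldn5). None of the 10 passed (0 at an unadjusted p below 0.05 and 0 by DESeq2), against 7.77% of all genes. The interval of Vegfa excludes a mean change as large as 2-fold in either direction, and those of the other members apart from Cldn5 do so as well. Without Cldn5, the mean log2 CPM of the other 8 genes was 5.48 in STD WT, 5.45 in STD KO, 5.31 in HFD WT and 5.33 in HFD KO, with SDs of 0.11 to 0.52 (n = 3 each). The differences between genotypes, −0.03 on the standard and 0.03 on the high fat diet, were smaller than these SDs.

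The high fat diet was compared with the standard diet within each genotype. In WT, 0 of 10 members passed by edgeR, 0 had an unadjusted p below 0.05 and DESeq2 called 0; the background was also 0% by edgeR, with 762 of 16076 genes at an unadjusted p below 0.05 and 43 calls by DESeq2. Fitted changes were below 0 for 9 of the 10 members, with a median of −0.17 against 0.01 over all genes. That count rested on single libraries: it was 3 without HFD WT 2 and 5 without STD WT 3. Cldn5 had the largest difference (log2 fold change −1.66, SE 0.86, interval −3.57 to 0.24, edgeR adjusted p = 1). It was the only member whose groups did not overlap, where 4.53% of all genes lay wholly lower, and without HFD WT 1 its value was −1.09. In KO, 0 of 10 members passed against 0.0435% of all genes (0 at an unadjusted p below 0.05, 0 by DESeq2), and Vegfa had a log2 fold change of −0.16 (interval −0.56 to 0.24). Averaged over both genotypes, 0 of 10 passed, against 0.0249% of all genes, again with 0 at an unadjusted p below 0.05 and 0 by DESeq2. The interaction of genotype and diet gave 0 of 10, 0 at an unadjusted p below 0.05 and 0 by DESeq2 on a background of 0% by edgeR; the difference between the KO effects on Vegfa was −0.03 (interval −0.59 to 0.54). These comparisons share libraries and are not independent of each other.

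**Figure D3:**
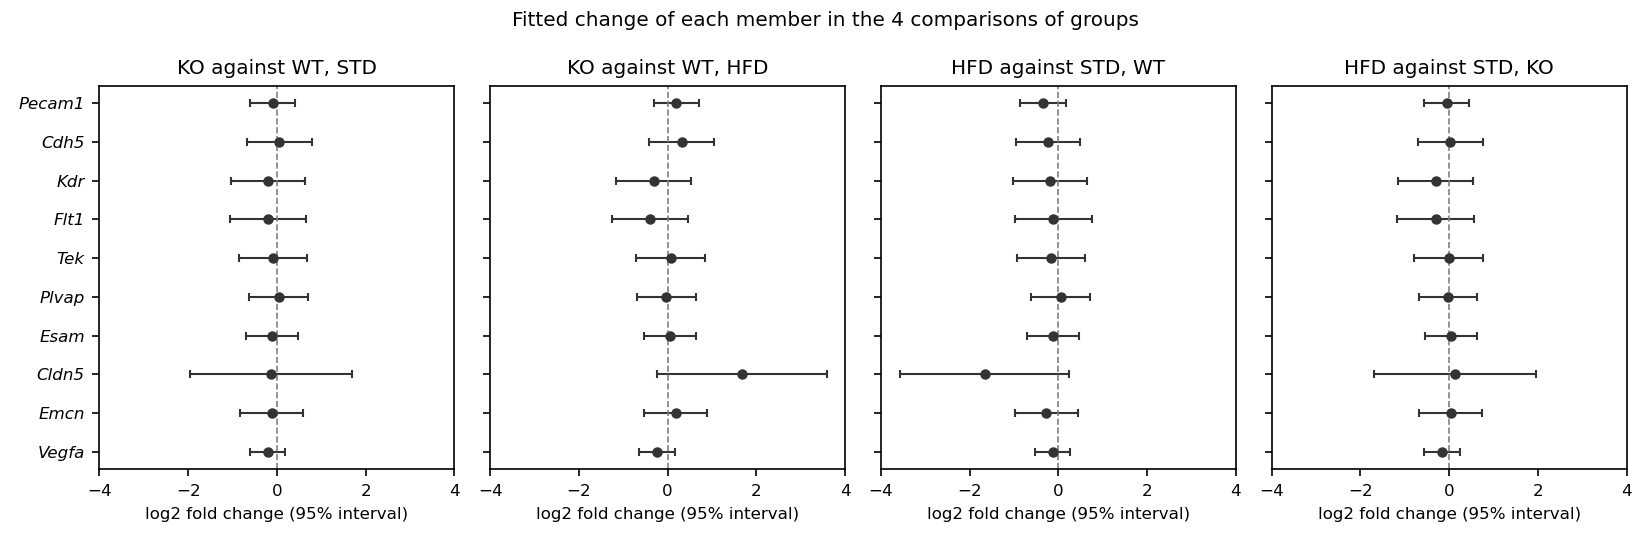
Each panel shows 1 comparison, with the fitted log2 fold change of each member (point) and its 95% interval (bar) on the horizontal axis and the genes in rows. Every interval includes 0 in all 4 panels; that of Vegfa is the narrowest and that of Cldn5 the widest.

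The other VEGF and angiopoietin genes held 1 difference that passed, that of Pgf. Placental growth factor, encoded by Pgf (chr12:85166635-85177790, minus strand), is a VEGF family ligand that binds Flt1 and not Kdr. It stood at 22.0, 14.0 and 19.7 CPM in HFD WT and at 11.4, 10.3 and 8.10 in HFD KO, and at 11.5, 16.3 and 22.1 CPM in STD WT against 10.3, 10.4 and 11.1 in STD KO. KO and WT did not overlap on either diet, as was the case, with KO lower, for 7.32% of all genes on the standard and 13.3% on the high fat diet. Pgf fell by 0.90 on the log2 scale on the high fat diet (SE 0.24, edgeR adjusted p = 0.0459, where 3.5% of all genes passed as lower) and by 0.78 averaged over both diets (SE 0.17, edgeR adjusted p = 0.0159). On the standard diet its value was −0.65 (SE 0.24, edgeR adjusted p = 0.37). The high fat call ended in 9 of the 12 leave-one-out fits (adjusted p as high as 0.175, without HFD WT 3), remaining only without HFD WT 2, STD WT 1 or STD WT 3. It also ended with DESeq2 size factors (0.0515), in a fit of the 2 groups alone (0.0674) and without STD WT 3 and the library labelled HFD KO 2 together (0.0821). The averaged call ended without HFD WT 3 (0.0559) and without STD WT 3 and the library labelled HFD KO 2 together (0.0677).

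The remaining 9 of the 10 tested genes of that list passed in none of the 7 comparisons by edgeR, and DESeq2 likewise called Pgf alone (on the high fat diet, 2 of the 10 had an unadjusted p below 0.05). Vegfb, another ligand of Flt1, stood at 39.4, 31.0 and 36.8 CPM in HFD WT and at 20.6, 25.3 and 28.4 in HFD KO. These libraries did not overlap (13.3% of all genes lay wholly lower), and Vegfb missed the threshold (log2 fold change −0.53, SE 0.18, edgeR adjusted p = 0.101). On the standard diet its value was 0.10. Of the 10 values on the high fat diet, 6 were below 0 and 4 above 0, from −0.90 (Pgf) to 0.64. The median of the list was −0.17 on the standard and −0.09 on the high fat diet.

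Among 25 further endothelial genes, 1 rose in KO on the high fat diet, where 3.9% of all genes passed as higher, and 24 did not pass. Gpr182, a receptor of endothelial cells, stood at 2.04, 5.54 and 2.97 CPM in HFD WT and at 8.53, 10.2 and 11.4 in HFD KO, without overlap (11.2% of all genes lay wholly higher). It was 1.51 higher on the log2 scale (SE 0.33, edgeR adjusted p = 0.0173), and 0.94 higher averaged over both diets (SE 0.23, edgeR adjusted p = 0.0273). The high fat call ended without HFD WT 3 (0.0864), in a fit of the 2 groups alone (0.0991) and without STD WT 3 and the library labelled HFD KO 2 together (0.0564). The averaged call ended without that pair (0.103), and without HFD WT 3, the library labelled HFD KO 2, STD KO 2, STD KO 3 or STD WT 3 in turn (up to 0.0763). The list as a whole had 18 of 25 values above 0 and a median of 0.24 on the high fat diet, against 49.8% of all genes above 0, and 7 of 25 and −0.09 on the standard diet, against 47%. The 25 genes share these libraries and are not independent. Their summed levels overlapped on the high fat diet (268 to 387 CPM in HFD WT, 291 to 426 in HFD KO). The 16 arterial, venous and lymphatic genes gave 0 calls by edgeR in KO against WT on either diet (0 and 1 at an unadjusted p below 0.05, 0 and 1 by DESeq2 on the standard and the high fat diet), with medians of −0.27 on the standard and 0.27 on the high fat diet. Mmrn1 had the largest value among them on the high fat diet (3.25, SE 1.01, edgeR adjusted p = 0.0788), resting on 0.054, 3.22 and 1.83 CPM in HFD WT against 4.94, 6.91 and 36.3 in HFD KO.

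Of the 11 tested pericyte and smooth muscle genes, which mark the mural cells around capillaries, 1 passed in KO against WT on the high fat diet, where 7.4% of all genes did. Kcnj8, a potassium channel subunit of pericytes, stood at 1.61, 3.76 and 1.72 CPM in HFD WT and at 6.12, 5.59 and 6.98 in HFD KO. It was 1.40 higher on the log2 scale (SE 0.34, edgeR adjusted p = 0.031), and with the replicate numbers as pairs the adjusted p was 0.0504. The call ended without HFD KO 1, the library labelled HFD KO 2, HFD WT 1 or HFD WT 3 (up to 0.141), without STD WT 3 and the library labelled HFD KO 2 together (0.0564), and in a fit of the 2 groups alone (0.117). The 11 basement membrane genes, the laminins, collagens and linkers on which endothelium and beta cells rest, gave 0 calls by edgeR in all 7 comparisons (at most 1 gene at an unadjusted p below 0.05 in any, and 1 call by DESeq2, of Sparc in KO on the high fat diet). Their values were below 0 in 11 of 11 genes for the diet in WT (median −0.39, against 51.5% of all genes above 0) and above 0 in 8 of 11 for KO on the high fat diet (median 0.13). Genes measured in the same libraries are not independent, so these counts are descriptions. The summed level was 596, 300 and 623 CPM in HFD KO against 435, 423 and 516 in HFD WT.

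Vegfa is controlled by HIF and by the coactivator encoded by Ppargc1a, and 3 of the 18 genes of that list passed in KO against WT on the high fat diet, where 7.4% of all genes did. Ppargc1a, the coactivator of mitochondrial biogenesis, stood at 11.3, 7.09 and 11.1 CPM in HFD WT against 4.45, 2.21 and 3.30 in HFD KO, and at 6.56, 6.78 and 5.35 CPM in STD WT against 3.45, 2.33 and 3.27 in STD KO. It fell by 1.56 on the log2 scale on the high fat diet (SE 0.29, edgeR adjusted p = 0.00795) and by 1.30 averaged over both diets (SE 0.21, edgeR adjusted p = 0.00205), and passed in every alternative run. On the standard diet its value was −1.04 (edgeR adjusted p = 0.143), and DESeq2, which called 484 genes there against 275 by edgeR, called it. The KO and WT libraries did not overlap, as was the case, with KO lower, for 7.32% of all genes. Egln1, the prolyl hydroxylase that marks HIF for degradation, fell by 0.53 on the high fat diet (SE 0.14, edgeR adjusted p = 0.0416), from 51.0, 42.3 and 50.2 CPM in HFD WT to 30.6, 28.7 and 40.1 in HFD KO. Bnip3, a mitophagy receptor and common HIF target, was 0.95 higher (SE 0.26, edgeR adjusted p = 0.0493), with 41.2, 28.2 and 33.4 CPM in HFD WT against 64.1, 94.0 and 41.2 in HFD KO.

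The calls of Egln1 and Bnip3 were fragile: Egln1 kept its call only without HFD WT 2 or HFD KO 3 among the 12 leave-one-out fits (adjusted p as high as 0.17), and Bnip3 only without HFD KO 3 (up to 0.191). Without the library labelled HFD KO 2, which held the highest level of Bnip3, its value was 0.62 (0.167). Without STD WT 3 and that library together, the adjusted p was 0.173 for Egln1 and 0.16 for Bnip3. With offsets corrected for gene length, Egln1 stood at −0.31 and lost its call (0.101), while Bnip3 stood at 0.63 and kept it (0.0497). Both calls also ended in a fit of the 2 groups alone (0.142 and 0.159) and without a filter on low counts (0.0723 and 0.0692), and that of Egln1 ended with limma on log2 FPKM (0.101 and 0.104). Paired by replicate number, Bnip3 had an adjusted p of 0.0838. The 18 genes as a list had medians of −0.08 on the standard and −0.15 on the high fat diet.

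**Figure D4:**
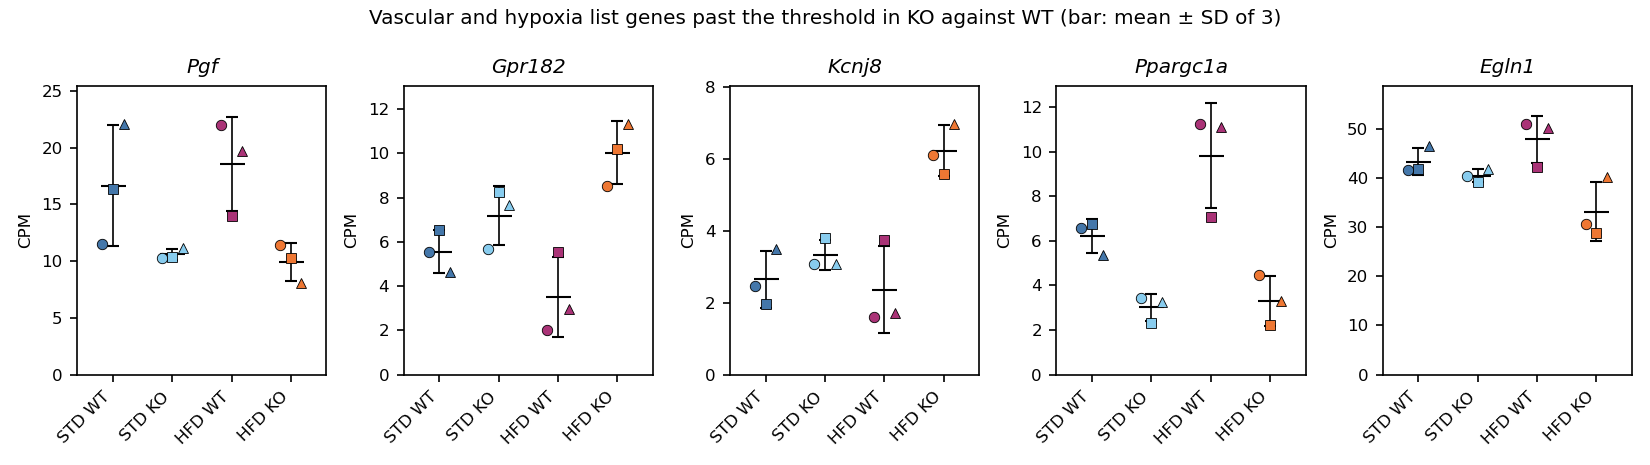
Each panel plots the CPM of 1 gene (vertical axis from 0) in the 4 groups, with circles, squares and triangles for libraries 1, 2 and 3 and bars for the mean ± SD of 3. Pgf, Ppargc1a and Egln1 lie lower, and Gpr182 and Kcnj8 higher, in all 3 HFD KO libraries than in all 3 HFD WT libraries. Over all genes, 13.3% lay wholly lower and 11.2% wholly higher. Bnip3, which also passed, is not shown, and its HFD KO and HFD WT libraries overlapped.

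Markers of other cell types were compared in the same libraries. In KO against WT on the high fat diet, 3 of 10 macrophage genes passed by edgeR (C1qb, C1qc and Mrc1, all higher), where 3.9% of all genes passed as higher. An unadjusted p below 0.05 was reached by 6 of the 10, and DESeq2 called 5. C1qc lost its call without HFD WT 1, HFD WT 2, HFD WT 3 or HFD KO 1 (edgeR adjusted p up to 0.114), and with offsets corrected for gene length. On the standard diet 0 of the 10 passed by edgeR (4 at an unadjusted p below 0.05, 0 by DESeq2), against 1.71% of all genes. Averaged over both diets 4 passed (7 at an unadjusted p below 0.05, 6 by DESeq2), against 7.77% of all genes. The summed level on the high fat diet was 383 to 505 CPM in HFD KO against 172 to 447 in HFD WT. The stellate cell and fibroblast markers gave 0 calls of 8 by edgeR (2 at an unadjusted p below 0.05, 0 by DESeq2), with a median of 1.25, and summed to 140 to 506 CPM in HFD KO against 28.5 to 212 in HFD WT. The acinar markers gave 0 calls of 10 by edgeR (0 at an unadjusted p below 0.05, 0 by DESeq2) and summed to 15653 to 20270 CPM in HFD KO against 19412 to 31574 in HFD WT, with overlap. The ductal markers gave 0 calls of 8 by edgeR (1 at an unadjusted p below 0.05, 1 by DESeq2). They summed to 509 to 587 CPM in HFD KO against 351 to 794 in HFD WT. Their highest sums of all libraries were 1183 CPM in STD WT 1 and 794 in HFD WT 2. Averaged over both diets, 1 of the 8 ductal genes, Cftr, passed as higher (log2 fold change 1.98, edgeR adjusted p = 0.0426). DESeq2 also called it, and 7.77% of all genes passed by edgeR in either direction. The edgeR call ended in most leave-one-out fits (up to 0.113). It also ended without a filter on low counts (0.112) and without STD WT 3 and the library labelled HFD KO 2 together (0.081). No marker of these lists was without counts throughout a group. Of 8 beta cell genes, 1 passed by edgeR as lower on the high fat diet, where 3.5% of all genes did (3 by DESeq2). An unadjusted p below 0.05 was reached by 5 of the 8, and by 3912 of all 16076 genes. Of the 8 values, 6 were below 0 and 2 above 0, against 49.8% of all genes above 0. The summed levels overlapped (243496 to 363473 CPM in HFD KO, 275372 to 402844 in HFD WT). The gene that passed, Ucn3, which marks mature beta cells, was lower (log2 fold change −1.13, edgeR adjusted p = 0.00459), with 253 to 274 CPM in HFD KO against 472 to 693 in HFD WT. The part of these values in the values of Vegfa, Pgf, Gpr182, Kcnj8, Ppargc1a, Egln1 and Bnip3 was not tested.

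Across libraries, the endothelial genes were correlated with each other, and Vegfa with them in part. The 36 pairs of the 9 endothelial genes had a median Pearson r of 0.77 over the 12 libraries (lowest −0.35, highest 0.99 for Kdr and Flt1), and the 28 pairs without Cldn5 a median of 0.80 (0.36 to 0.99). These are descriptions without a test, over libraries that share groups and differ in cell makeup. Vegfa had r = 0.53 and Spearman rho = 0.52 with the mean of the 9 genes, r = 0.72 without the 2 libraries farthest from the median of that mean, and r = 0.70 after removing group means. With the mean of the 8 genes without Cldn5, Vegfa had r = 0.73, rho = 0.73 and r = 0.82 after removing group means. With the beta cell list (8 genes, mean log2 CPM) Vegfa had r = 0.78 and rho = 0.66. It had r = 0.66 without the 2 libraries farthest from the median of Vegfa and r = 0.85 after removing group means. With the ductal list Vegfa had r = −0.72, rho = −0.71, and r = −0.43 and −0.85 in these 2 ways. The acinar list gave r = −0.58, then 0.03 and −0.76, and the macrophage list −0.62, then −0.57 and −0.51. The part of 1 list in the relation of Vegfa to another was not tested. The mean of the 9 endothelial genes had r = 0.09 and rho = 0.01 with the beta cell list. It had r = 0.53 without the 2 libraries farthest from the median of the endothelial mean and r = 0.52 after removing group means.

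**Figure D5:**
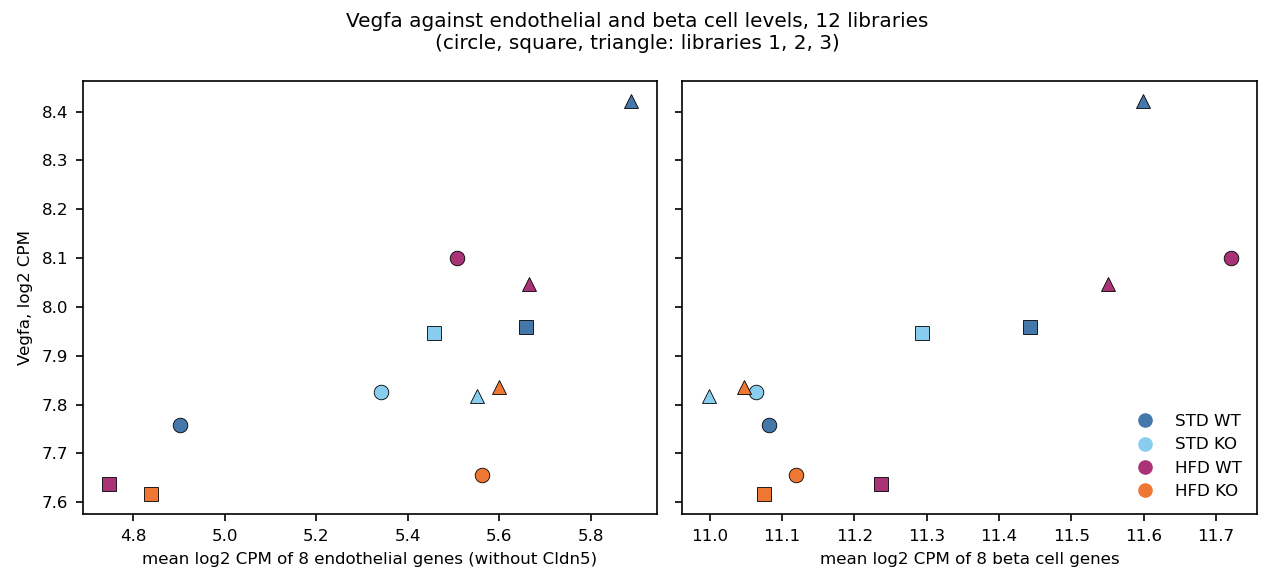
Each point is 1 library, coloured by group and shaped by its number, with Vegfa (log2 CPM) on the vertical axis against the mean log2 CPM of 8 endothelial genes (left) and of 8 beta cell genes (right). STD WT 3 has the highest Vegfa in both panels, and the 3 libraries of lowest endothelial level lie at the left of the left panel.

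Among 12504 genes with a mean of at least 2 CPM, the 5 most like Vegfa over the 12 libraries were Hspa4 (r = 0.94), Arl10 (0.93), Wbp4 (0.93), Hepacam2 (0.93) and Mapre3 (0.93). The 5 most like the mean of the 9 endothelial genes were Ehd4 (0.92), Akap12 (0.91), Tnfaip2 (0.90), Tie1 (0.90) and Fgd5 (0.89). The sets shared no gene. Cldn5, examined after its values were seen, was most like Msr1 (r = 0.97), a macrophage scavenger receptor, followed by Htra1 (0.96) and Procr (0.95). The fibroblast genes Pdgfra (0.95) and Dcn (0.94) were also among its 10 nearest, and HFD WT 1 held the lowest count of each of these 5 genes, 0 for Msr1 and 60 for Dcn against at least 15 and 447 elsewhere.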

How the data were processed

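RNA of islets from 12 libraries (4 groups of 3) was analysed from deposited tables. The authors deposited read counts per gene from reads mapped to mm10, and deposited FPKM values, each of the 257939 nonzero ones equal to its count over length and total (relative tolerance 1e-05). TopHat2, Cufflinks and DESeq are named without versions, per the submitters' processing notes; what counted the reads, with which annotation and strand option, is not given in the sources used here. Symbols were found for 54409 of 54532 Ensembl IDs, positions come from GENCODE M21 and promoters from RefSeq.

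Counts were fitted with edgeR 4.0.16 (R 4.3.3): filterByExpr (minimum count 10, minimum total 15), TMM, 1 mean per group, robust quasi-likelihood, 7 contrasts, and Benjamini-Hochberg adjustment over 16076 genes with a threshold of 0.05. The fit was also run on counts simulated from its own estimates of spread. These hold no differences in cell makeup between libraries, so that run cannot show whether the calls here are sound. The log2 CPM computed from the deposited counts used a prior count of 1. Between replicates, chi-square per degree of freedom was 26.6 to 101, so the spread between libraries, not depth, set the precision.

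The members and gene lists were chosen with earlier results of these data known, so no p is adjusted over a list and no list is tested as a set. Named are the 10 members, up to 4 list genes past the threshold per contrast (or else up to 2 of smallest p), and the 5 genes most like Vegfa and the endothelial mean; any further gene is marked in the text as picked with its values in view, or serves as an example of a list. Same-numbered WT and KO libraries deviated together on the high fat diet (r = 0.515, 0.399 and 0.332 across genes) but not on the standard diet (−0.015, −0.179 and −0.232). Differently numbered libraries of other groups reached similar values (0.504 for STD WT 1 with HFD WT 2, 0.395 for STD WT 3 with HFD WT 1). Such r therefore do not establish pairs. Pairing the high fat libraries by number comes from the data and not from the labels. The replicate block applied the numbers on both diets. Alternatives were DESeq2 size factors, the DESeq2 1.42.0 Wald test, other filters, limma 3.58.1 on log2 FPKM (pseudocount 1 or 0.1), fits of the compared groups alone, a replicate block, offsets corrected for gene length, and leaving libraries out.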

Additional observations from a re-analysis of the deposited data

How the results depend on the processing

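No member passed in any of the 1510 values of the 70 member results under the alternatives run; 194 of these values changed sign, none of them called, and 18 moved by more than 1 SE. The count of endothelial members past the threshold was 0 under every alternative run. The difference in the mean log2 endothelial level between KO and WT was −0.04 on the standard diet (−0.33 to 0.14 leaving out 1 library at a time) and 0.30 on the high fat diet (0.15 to 0.53). Without Cldn5, an alternative added after seeing the data, the high fat value was 0.03. The replicate block also paired the standard diet libraries by number, although these did not deviate together. Its standard diet and averaged values thus rest on a pairing that neither labels nor data give. With the replicate block, Vegfa stood at −0.18 on the standard and −0.23 on the high fat diet (edgeR adjusted p = 0.956 and 0.422). The block ended the high fat calls of Kcnj8 (0.0504) and Bnip3 (0.0838) and the averaged KO call of Cftr (0.0551), and changed no other call of a named gene between KO and WT. On the log2(FPKM + 1) scale, the high fat values of Ppargc1a (−0.997), Gpr182 (0.90) and Kcnj8 (0.86) were smaller by over 1.5 times, and their calls held.

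The number of genes past the threshold over all genes was less stable. On the standard diet it was 275, with 484 by DESeq2 and 146 (without STD WT 2) to 296 leaving out 1 library. On the high fat diet it was 1189, with 2033 by DESeq2, 543 in a fit of the 2 groups alone, 745 without STD WT 3 and the library labelled HFD KO 2, and 519 (without HFD KO 1) to 2899 (without HFD KO 3). Averaged over both diets it was 1249, with 823 (without HFD WT 3) to 1909 (without HFD KO 3). For the diet, edgeR called 0 genes in WT (762 at an unadjusted p below 0.05, 43 by DESeq2), 7 in KO (140 by DESeq2, 0 in a fit of the groups alone or with the replicate block, 0 to 801 leaving out 1 library, the highest without HFD KO 3) and 4 averaged over genotypes (88 by DESeq2, 11 without a filter, 0 with the replicate block). The interaction gave 0 by edgeR (1271 at an unadjusted p below 0.05), 31 by DESeq2 and 1 without a filter.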

Other observations

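Set against the mean of the 8 endothelial genes other than Cldn5, Vegfa was higher by 2.56 ± 0.28 on the log2 CPM scale in STD WT, 2.41 ± 0.13 in STD KO, 2.62 ± 0.25 in HFD WT and 2.37 ± 0.36 in HFD KO (SD, n = 3 each), and the ranges of the 4 groups overlapped. The ratio of Vegfa to Kdr in CPM was 3.68 in STD WT 1, 3.87 in HFD WT 2 and 4.32 in the library labelled HFD KO 2, and 2.17 to 2.76 in the other 9 libraries. These 3 libraries were those with the lowest endothelial level, and Kdr stands in both quantities. These comparisons were chosen after the values were seen and were not tested.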
